A study of Mus musculus and Rattus norvegicus with 24 samples.

Results

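In mouse brain tissue, the effect of occluding the middle cerebral artery was compared between 2 h and 6 h, gene by gene. The change of the effect was (MCAO minus sham at 6 h) minus (MCAO minus sham at 2 h), on the log2 scale, where 1 unit is a 2-fold difference. The comparison used the 12 mouse arrays of the 24 arrays in the series, and 22180 genes with a transcript cluster of their own among 41345 clusters. For each gene it was also asked whether the occluded or the sham animals had moved between the times, after the median of each array had been subtracted. These subtracted values are called centred values below, and a value of 0 lies at the array's median.

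The 4 groups held 3 animals each: MCAO at 2 h, sham at 2 h, MCAO at 6 h and sham at 6 h, with 1 whole-transcript array per animal. All were adult male C57BL/6 mice of 8 to 10 weeks with no genetic alteration named, anaesthetised with isoflurane. In the MCAO groups a filament closed the origin of the right middle cerebral artery and was left in place (permanent occlusion, no reperfusion), and sham animals had the same surgery without the occlusion. A 3 by 3 mm piece of the penumbra, the rim around the ischaemic core, or of the matching region in sham animals was taken, so every value is a mixture of cell types.

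Arterial occlusion starves neurons, glia and vessels of oxygen and glucose. Immediate early genes and heat shock genes are known to respond first, and inflammatory, vascular and glial genes follow over hours, while transcripts of neurons are lost. Surgery and anaesthesia also act on sham animals, as a stress that raises glucocorticoids and then subsides. A changing difference between occluded and sham tissue can therefore come from either side, and the centred values of both are given for each gene.

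The arrays of a time had nearly the same distribution, and those of different times did not. The deposited log2 values had array medians from 6.03 to 6.06 in the 2 h groups and from 5.92 to 5.96 in the 6 h groups. Their interquartile ranges were 2.51 to 2.59 and 2.38 to 2.46. Centring removes the first of these differences and not the second. An offset of a single gene between the 2 h and the 6 h arrays would enter the MCAO shift and the sham shift alike, where it cannot be told apart from time, and it cancels in the change of the effect. The 3 arrays of a group are separate animals, and their number limits the precision. For a comparison of 3 animals against 3 the smallest p of an exact permutation test is 0.1. The change uses all 4 groups, and this limit is not its own. The tests reported are those of limma's model over all genes.

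The effect of occlusion differed between the times in 41 genes at an adjusted p under 0.05. In 19 the change was towards higher values in MCAO (0.0857% of the genes tested) and in 22 towards lower values (0.0992%). Sizes ran from 0.51 to 2.46 log2 units with standard errors of 0.08 to 0.26, and adjusted p from 0.0161 to 0.0468. At an unadjusted p under 0.05 there were 3092 genes, and the median change over all genes was -0.02. Among those with higher change were the growth arrest genes Gadd45b and Cdkn1a, the vascular genes Angpt2 and Adm, Mmp12, C3ar1 and small nucleolar RNAs. Among those with lower change were the neuronal surface genes Flrt2, Slitrk1, Slitrk3 and Npy1r and the microRNA gene Mir128-1.

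The 41 calls lay close to the threshold and depended on single animals. Without MCAO animal 1, 2 or 3 at 2 h the number called was 4, 12 or 9, and without sham animal 1, 2 or 3 at 2 h it was 5, 0 or 1 (2667 genes at an unadjusted p under 0.05 in the fit with 0 calls). Without MCAO animal 1, 2 or 3 at 6 h it was 85, 7 or 3, and without sham animal 1, 2 or 3 at 6 h it was 17, 2 or 5. In each of these fits all 41 genes kept the sign of their change. Snora75 was called in 11 of the 12 fits, Cyp1b1 in 8 and Ddit4l in 7, while 9530091C08Rik and Ankrd34c were called in none. When all 41345 clusters were tested the number called was 14, of which 7 had a single symbol.

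Markers of striatal projection neurons had negative estimates of the change, and their part in the 41 changes was not tested beyond the fit given here. The mean centred value of the 9 measured markers of 12 was 1.86 to 2.31 in MCAO and 2.18 to 2.24 in sham animals at 2 h, and 1.61 to 1.74 in MCAO and 1.85 to 2.71 in sham animals at 6 h. At 6 h all MCAO animals lay below all sham animals, and sham animal 2 lay nearest to them. All 9 had a negative change (median -0.49) and 0 of 9 passed the test. The shift between the times passed in 0 of the 9 in MCAO and in 0 in sham animals. Over all arrays the 9 had mean centred values from 0.69 (Tac1) to 3.76 (Penk). With this mean as a covariate, 0 genes were called for the change and 2355 had an unadjusted p under 0.05. The sizes of the 41 changes were then 0.78 to 1.16 times their main values, and the covariate alone widened the standard error 1.17 times. In tissue pieces, fewer cells of a type and less RNA per cell cannot be told apart.

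Which side moved differed between genes. The MCAO values at 6 h were higher than at 2 h in 2260 genes (10.2%) and lower in 4662 (21%) at an adjusted p under 0.05, and the sham values were higher in 1644 (7.41%) and lower in 3142 (14.2%). Of the 19 genes with higher change, only the MCAO values moved in 8, only the sham values in 4, and both in opposite directions in 7. Of the 22 with lower change, only the MCAO values moved in 12, both in opposite directions in 8 and both downwards in 2. The MCAO shift was the larger of both in 12 of the 19 and in 21 of the 22. Across all genes, 17.5% had only a moved MCAO side by the same rule and 7.84% only a moved sham side.

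These splits depend on the scaling of the arrays. Calls in the higher direction made up 32.6% of the MCAO shifts here, 13.6% without centring, 46.5% after quantile normalization and 41.1% after scaling to equal interquartile ranges. For the sham shifts the shares were 34.4%, 11%, 51.0% and 49.4%. Without centring, the median over all genes was -0.16 for both shifts, in place of -0.05. The side that moved was the same for 37 of the 41 genes after quantile normalization, for 37 after interquartile scaling and for 30 without centring, where Kdm6b, Ippk, Niban2, Sh2d4b, Slco1a4, Slitrk1, Ift80, Zfp40, Pot1a, AI593442 and 1700069L16Rik changed class. After quantile normalization Gadd45b, Cdkn1a, Jcad and 1700069L16Rik did, and after interquartile scaling Cdkn1a, Jcad, Slitrk3 and 1700069L16Rik. The count of sham shifts was 4786 with all animals, 3019 and 2805 without sham animal 2 or 3 at 2 h, and 3036 without sham animal 2 at 6 h.

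**Figure D1:**
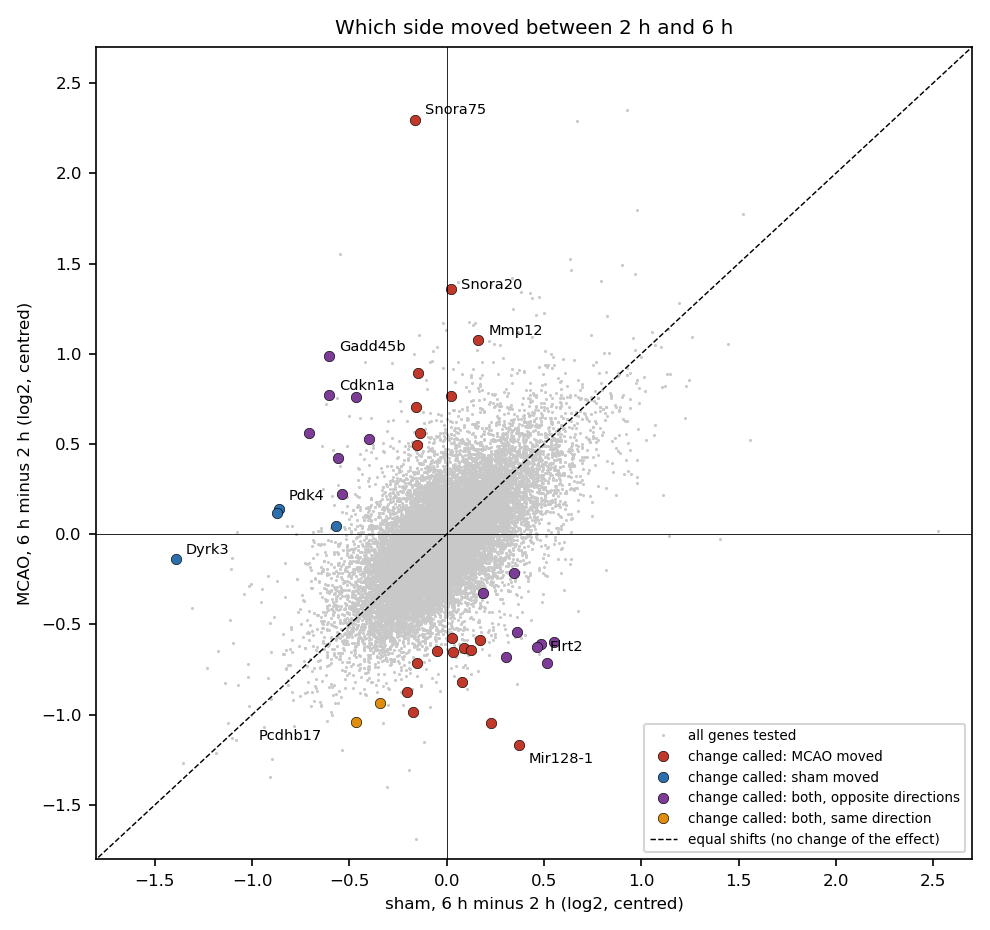
Shift of the sham values (horizontal) against the shift of the MCAO values (vertical) between 2 h and 6 h, in log2 units of centred values, for all 22180 genes (grey) and the 41 called for a change of the effect, coloured by the side that moved. The vertical distance from the dashed line is the size of the change of the effect. Dyrk3 and Pdk4 lie left of the centre at an MCAO shift near 0, while Snora75 and Mmp12 lie above the centre at a sham shift near 0.

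The effect at each time places these changes. At 2 h, 29 genes were higher (0.131%) and 36 lower (0.162%) in MCAO than in sham, and at 6 h 597 were higher (2.69%) and 1227 lower (5.53%). Higher genes made up 32.7% of the calls at 6 h, and 43.1% without centring or after quantile normalization. Of the 41 genes whose effect changed, 40 were called at 6 h and 2 at 2 h, and the tests share the same arrays. In 16 of the 41 the effect was larger at 6 h with the same sign, and in 25 the estimates had opposite signs. In none was the effect smaller at 6 h with the same sign. Some of the 25 were smaller in size at 6 h, such as Slc25a13 (-0.47 at 2 h and 0.14 at 6 h). In 27 of the 41 the effect at 2 h was under 0.25 log2 units in size. The MCAO and sham values of 18 of the 19 and of 22 of the 22 genes did not overlap at 6 h, and at 2 h those of 9 and 11 did not overlap. Over all genes tested, the MCAO and sham values did not overlap in 27.1% at 6 h and in 16.2% at 2 h, and the change itself uses these values. Leaving out 1 animal gave 23 to 66 calls at 2 h and 801 to 1605 at 6 h, the latter lowest without sham animal 3 at 6 h. With the striatal marker mean as a covariate there were 40 calls at 2 h and 40 at 6 h.

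**Figure D2:**
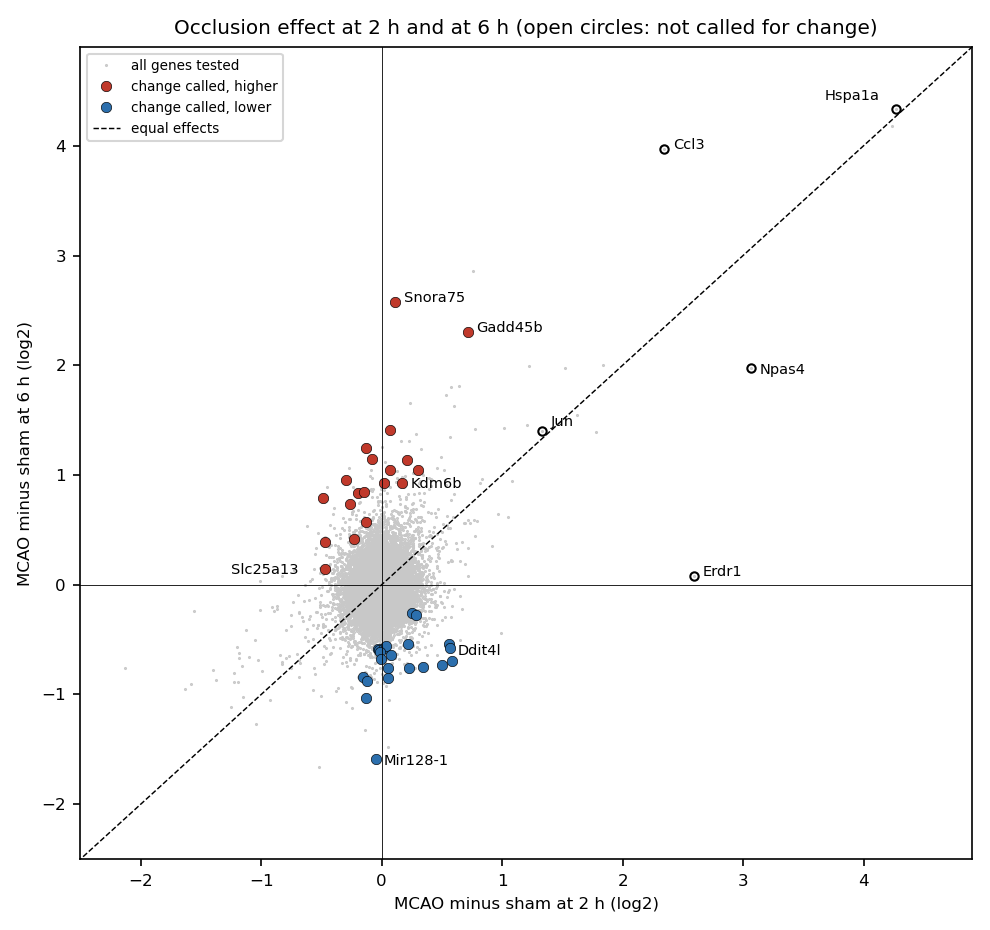
Effect of occlusion (MCAO minus sham, log2) at 2 h (horizontal) and 6 h (vertical) for all 22180 genes (grey). Red marks the 19 with a called higher change and blue the 22 with a called lower change. Open circles mark 5 genes whose effect was called at 2 h and whose change was not called. Of the called genes 27 lie within 0.25 of 0 on the horizontal axis and others, such as Gadd45b (0.71) and Ddit4l (0.56), farther out, while Hspa1a (4.27 and 4.34) lies on the dashed line of equal effects.

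The stress-response genes Gadd45b and Cdkn1a had the largest called changes among the named protein-coding genes. Gadd45b encodes a stress sensor that arrests growth and takes part in DNA demethylation. Its centred values were 1.96, 2.46 and 2.21 in MCAO and 1.38, 1.46 and 1.65 in sham animals at 2 h. At 6 h they were 2.92, 3.12 and 3.55 in MCAO and 1.11, 0.82 and 0.75 in sham animals. The groups did not overlap at either time, and the gap widened from both sides. The effect was 0.71 at 2 h (adjusted p = 0.183) and 2.30 at 6 h (adjusted p = 5.73e-05), a change of 1.59 ± 0.24 (SE, n = 3 per group, limma, adjusted p = 0.0345). The MCAO values rose by 0.99 (adjusted p = 0.00144) and the sham values fell by 0.60 (adjusted p = 0.0251).

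Cdkn1a encodes p21, an inhibitor of cyclin-dependent kinases and a classical target of p53. It read 2.33, 2.87 and 2.86 in MCAO and 2.72, 2.79 and 2.93 in sham animals at 2 h, where the groups overlapped. At 6 h it read 3.21, 3.40 and 3.76 in MCAO and 2.36, 2.24 and 2.03 in sham animals, with no overlap. The change was 1.37 ± 0.23 (adjusted p = 0.0444), with a rise of 0.77 in MCAO (adjusted p = 0.00484) while the sham values fell by 0.60 (adjusted p = 0.0234). After quantile normalization the sham falls of Gadd45b (-0.54) and Cdkn1a (-0.50) no longer passed the threshold and the MCAO rises did. Gadd45b was called in 3 and Cdkn1a in 1 of the 12 fits without 1 animal.

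Of the 23 measured genes of the cell death, survival and p53 list, 2 were called higher (Gadd45b and Cdkn1a) and 0 lower for the change, with a median of 0.21. Fas, a death receptor, did not pass for the change (0.84, adjusted p = 0.0565). Its sham values read 0.20, 0.28 and 0.31 at 2 h and -0.26, -0.57 and -0.76 at 6 h, a fall of 0.79 (adjusted p = 0.00132), while its MCAO values stayed between 0.15 and 0.34 throughout. The related Gadd45g (change 0.78, adjusted p = 0.0869) had the same pattern, with sham values of 1.07 to 1.16 at 2 h and 0.19 to 0.43 at 6 h and MCAO values of 2.12 to 2.65 and 2.27 to 2.42. Mdm2, the ubiquitin ligase of p53, had a change of 0.47 (adjusted p = 0.0963). In this list the sham values fell while the MCAO values did not in 7 of 23 genes (30.4%, against 4.78% of all genes tested). The list's sham shift had a median of -0.17 with 8 falls here (14.2% of all genes fell). After quantile normalization the median was -0.14 with 4 falls (1507 of all 22180 genes then fell).

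Gadd45b and Cdkn1a moved together and belong to one list, so their promoters were searched on both strands for TGACGTCA (CRE, the cyclic AMP response element), TGANTCA (AP-1), CACGTG (the E-box) and TGACG (the short CRE). The window was the 250 bases before each RefSeq start (GRCm38.p6). The short CRE is contained in the CRE. Gadd45b, at chr10:80929841-80930090 on the plus strand, holds 1 E-box, shown in capitals, which begins 185 bases before the start. It is printed because it is the only match in the windows of both genes.
Gadd45b: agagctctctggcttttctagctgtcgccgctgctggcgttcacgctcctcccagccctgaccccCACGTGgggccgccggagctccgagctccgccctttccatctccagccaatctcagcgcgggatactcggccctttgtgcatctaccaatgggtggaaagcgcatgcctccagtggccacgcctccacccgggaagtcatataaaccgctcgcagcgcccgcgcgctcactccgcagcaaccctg

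The table lists 2 starts for Cdkn1a on chromosome 17, and neither window holds any of these motifs. Of 32851 promoters in the table, 1.55% hold a CRE, 6.75% an AP-1 site, 6.02% an E-box and 17.8% a short CRE in the same length. A match is a description of the sequence and no evidence of binding.

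Among vascular genes, Angpt2 and Adm gained an effect by 6 h. Angpt2 encodes angiopoietin-2, which loosens the contacts of endothelial cells by opposing angiopoietin-1 at the Tie2 receptor. It read -1.13, -1.22 and -1.35 in MCAO and -1.21, -0.90 and -0.99 in sham animals at 2 h, and -0.40, -0.15 and -0.47 against -1.09, -1.06 and -1.39 at 6 h. Only the 6 h MCAO animals stood apart from the rest. The change was 1.04 ± 0.17 (adjusted p = 0.0413), with a rise of 0.89 in MCAO (adjusted p = 0.000392) and a sham shift of -0.15 (adjusted p = 0.395).

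Adm encodes adrenomedullin, a vasodilator peptide induced by hypoxia. It read 0.03, -0.28 and 0.01 in MCAO and -0.30, -0.37 and -0.20 in sham animals at 2 h, and 0.29, 0.46 and 0.60 against -0.78, -0.72 and -0.57 at 6 h. The change was 0.93 ± 0.15 (adjusted p = 0.0399), and both sides moved apart, with a rise of 0.53 in MCAO and a sham value that fell by 0.40 (adjusted p = 0.0031 and 0.0194). Cyp1b1, a cytochrome P450 induced through the aryl hydrocarbon receptor, followed the same course. It read -0.08 to -0.41 in all 6 animals at 2 h, and 0.37, 0.47 and 0.74 in MCAO against -0.66, -0.69 and -0.51 in sham animals at 6 h (change 1.23 ± 0.15, adjusted p = 0.0223).

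The lists around these genes moved less. Of 24 measured genes of matrix, fibrinolysis and vascular growth, 1 (Angpt2) was called higher and 0 lower for the change (median 0.19). Angpt1, the opposing ligand, had a change of 0.28 (adjusted p = 0.517), and Vegfa, the main vascular growth factor, 0.22 (adjusted p = 0.564). Of 26 hypoxia and glycolysis genes, 1 (Adm) was called higher and 0 lower (median 0.10). The glucose transporter genes Slc2a1 and Slc2a3 had changes of 0.33 and 0.39 (adjusted p = 0.366 and 0.159), and their sham values fell by 0.61 and 0.32 (adjusted p = 0.00389 and 0.016) while the MCAO shifts did not pass (-0.28 and 0.07).

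Of the myeloid genes, Mmp12 and C3ar1 rose on the MCAO side alone. Mmp12 encodes the macrophage metalloelastase. It lay between -1.63 and -1.39 in all 6 animals at 2 h and between -1.55 and -1.14 in sham animals at 6 h, while MCAO animals at 6 h read -0.48, -0.38 and -0.30. The change was 0.91 ± 0.15 (adjusted p = 0.044). C3ar1 encodes the receptor for the complement fragment C3a. It read 0.17, 0.34 and 0.32 in MCAO and -0.12, -0.01 and 0.05 in sham animals at 2 h, and 0.84, 1.16 and 1.13 against -0.04, 0.02 and 0.00 at 6 h. Its change was 0.75 ± 0.13 (adjusted p = 0.0444), and the sham values stayed within 0.17 log2 units of each other throughout.

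Neutrophil and microglial markers are given beside these genes. The mean centred value of 12 neutrophil markers was -1 to -0.81 in MCAO and -1.07 to -1.06 in sham animals at 2 h, and -0.83 to -0.65 against -0.90 to -0.88 at 6 h, and 0 of 12 passed for the change (median 0.01, positive in 18 of 23 settings). The mean of 11 microglial markers was 1.27 to 1.30 against 1.28 to 1.31 at 2 h, and 1.01 to 1.12 against 1.34 to 1.40 at 6 h, so the microglial mean was lower in MCAO at 6 h, opposite to Mmp12 and C3ar1. Their part in the result was not tested.

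In 4 genes, Dyrk3, Pdk4, Slc25a13 and Snord90, the sham side alone moved. Dyrk3 encodes a kinase that dissolves stress granules. It read 1.18, 1.29 and 1.41 in MCAO and 1.31, 1.77 and 1.70 in sham animals at 2 h, and 1.00, 1.11 and 1.36 against 0.41, 0.28 and -0.08 at 6 h. The MCAO values of both times overlapped, and the sham values fell by 1.39 (adjusted p = 0.000498). The change was 1.25 ± 0.21 (adjusted p = 0.0444), while the effect was -0.30 at 2 h (adjusted p = 0.649) and 0.95 at 6 h (adjusted p = 0.0056).

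Pdk4 encodes the pyruvate dehydrogenase kinase that shuts glucose carbon out of the mitochondrial cycle and is induced by glucocorticoids and fasting. It read 0.85, 1.18 and 1.19 in MCAO and 1.30, 1.47 and 1.24 in sham animals at 2 h, and 1.15, 1.25 and 1.24 against 0.22, 0.57 and 0.63 at 6 h. Sham values were above MCAO at 2 h and below at 6 h. The effect did not pass at 2 h (-0.26, adjusted p = 0.611) and passed at 6 h (0.74, adjusted p = 0.00645). The change was 1.00 ± 0.17 (adjusted p = 0.0444), the MCAO shift was 0.14 (adjusted p = 0.396), and the sham values fell by 0.86 (adjusted p = 0.00152).

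Slc25a13, the mitochondrial aspartate and glutamate carrier citrin, was the one gene of the 19 called at 2 h and not at 6 h. Sham animals read 0.54, 0.59 and 0.48 at 2 h and -0.02, 0.01 and -0.09 at 6 h, while all 6 MCAO animals lay between -0.04 and 0.18. The effect was -0.47 at 2 h (adjusted p = 0.022) and 0.14 at 6 h (adjusted p = 0.261), so the 2 h sham animals were the group that stood apart. The change was 0.61 ± 0.10 (adjusted p = 0.0444).

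Of the remaining named genes with higher change, Kdm6b moved on both sides. It encodes the histone H3K27 demethylase JMJD3, and its values of 2.36 to 2.47 in MCAO and 2.16 to 2.28 in sham animals at 2 h became 2.58 to 2.66 against 1.61 to 1.81 at 6 h (change 0.76 ± 0.10, adjusted p = 0.0223). With the 2 clusters of this symbol averaged the change was 0.44 and did not pass (adjusted p = 0.0801), and without centring its MCAO shift (0.12) did not pass. Ippk, which makes inositol hexakisphosphate, Niban2 and Sh2d4b rose on the MCAO side alone, by 0.56, 0.49 and 0.70, and had changes of 0.70, 0.64 and 0.86 (adjusted p = 0.0399, 0.0438 and 0.0428). Without centring the sham falls of these 3 genes also passed. The unnamed locus LOC100043315, chosen after its values were seen, had a change of 1.27 with both sides moving.

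**Figure D3:**
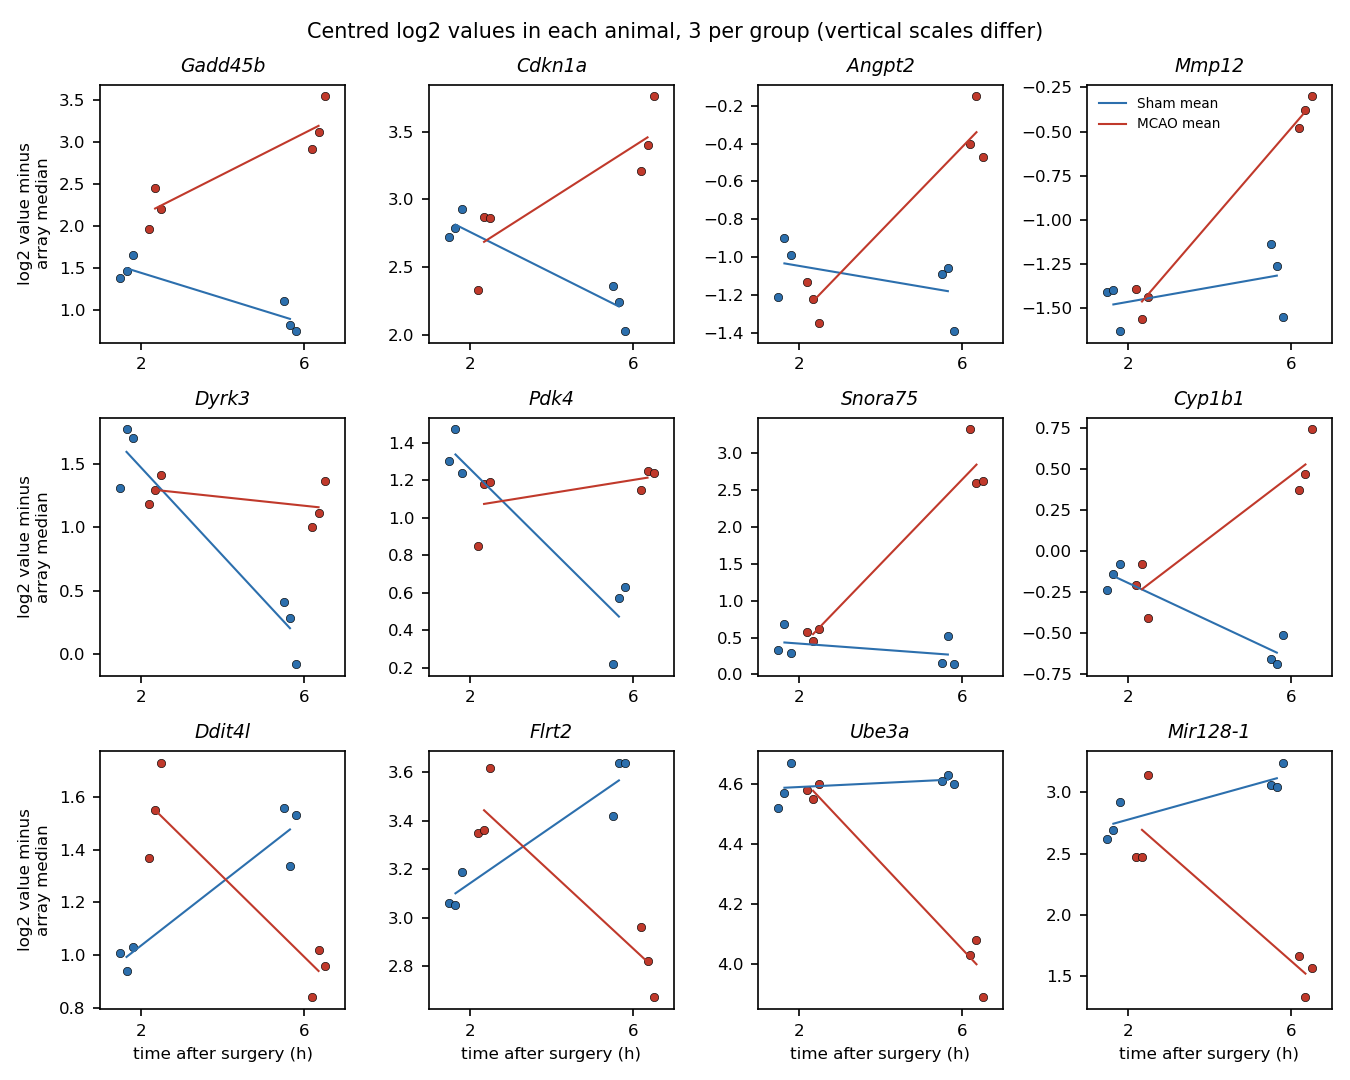
Centred log2 values of 12 genes in each animal at 2 h and 6 h, with sham in blue, MCAO in red and lines joining the group means of 3 animals; vertical scales differ between panels. Gadd45b and Cdkn1a part from both sides, Dyrk3 and Pdk4 part through falling sham values, Snora75 and Mmp12 through rising MCAO values, and Ube3a and Mir128-1 through falling MCAO values.

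The largest called change was in a small nucleolar RNA, and 4 of the 19 genes with higher change were of this class. Of 74 genes of the class tested, 4 were called higher (5.41%, against 0.0857% of all genes) and 0 lower, 68 had a positive estimate, and the median was 0.36. The class was picked after its values were seen, and nothing was tested for it. Small nucleolar RNAs are cut from introns of host genes; the H/ACA class (Snora) guides pseudouridylation and the C/D class (Snord) guides ribose methylation of ribosomal RNA. They lie outside the naming rule and are named here after their values were seen. Snora75 read 0.58, 0.45 and 0.61 in MCAO and 0.33, 0.68 and 0.29 in sham animals at 2 h, and 3.32, 2.59 and 2.62 against 0.15, 0.52 and 0.14 at 6 h. All 3 MCAO animals at 6 h lay far above the other 9. The change was 2.46 ± 0.26 (adjusted p = 0.0161).

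The other 3 were smaller. Snora20 read -0.62 to -1.07 in all other groups and 0.86, 0.45 and 0.41 in MCAO animals at 6 h (change 1.34 ± 0.21, adjusted p = 0.0399). Snora31 rose by 0.42 in MCAO while its sham values fell by 0.56 (change 0.98, adjusted p = 0.0345). Snord90 moved on the sham side alone, from -0.66, -0.57 and -0.52 to -1.70, -1.46 and -1.21 (change 0.99, adjusted p = 0.0444). By RefSeq position their hosts are Ncl, Tcp1, Tpt1 and Rc3h2. None of these hosts was called, with changes of 0.20, 0.11, 0.08 and -0.05 and adjusted p of 0.405, 0.618, 0.714 and 0.868. Ncl, the nucleolin gene, read 2.84 to 2.92 in MCAO at 2 h and 2.55 to 2.69 at 6 h, and the host of Snora75 fell on both sides, by 0.28 in MCAO and by 0.48 in sham (adjusted p = 0.0108 and 0.0019). The difference between guide RNA and host was not tested.

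Among the genes with lower change, the largest was the microRNA gene Mir128-1, which lies on chromosome 1 at chr1:128202361-128202430 on the plus strand (RefSeq, GRCm38.p6), inside R3hdm1. miR-128 is a brain-enriched microRNA of neurons. A second gene, Mir128-2, lies inside Arpp21 on chromosome 9 at chr9:112118636-112118711 on the minus strand, and gives the same 3p product. The hairpins are shown because the array reads the 2 genes apart while the 3p sequence, in capitals in the hairpins, is identical. In the mature sequences the capitals mark the seed, bases 2 to 8.
Mir128-1 hairpin: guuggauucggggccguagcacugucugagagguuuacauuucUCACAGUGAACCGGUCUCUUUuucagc
Mir128-2 hairpin: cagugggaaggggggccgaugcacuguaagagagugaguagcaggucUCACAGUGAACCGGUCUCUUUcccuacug
miR-128-3p: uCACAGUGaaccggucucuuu
miR-128-1-5p: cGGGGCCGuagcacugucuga
miR-128-2-5p: gGGGGCCGaugcacuguaagaga

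Mir128-1 read 2.47, 2.47 and 3.14 in MCAO and 2.62, 2.69 and 2.92 in sham animals at 2 h, where the groups overlapped. At 6 h it read 1.67, 1.33 and 1.57 in MCAO and 3.06, 3.04 and 3.24 in sham animals, with no overlap. The change was -1.54 ± 0.23 (adjusted p = 0.0345). The MCAO values fell by 1.17 (adjusted p = 0.000542), and the sham shift was 0.37 (adjusted p = 0.128). Mir128-2 gave another pattern, reading -0.71, -1.39 and 0.09 in MCAO and 0.28, 0.74 and 0.55 in sham animals at 2 h, and 0.17, -0.07 and 0.09 against 0.88, 1.27 and 0.71 at 6 h, with a change of 0.30 ± 0.41 (adjusted p = 0.783). R3hdm1, the host of Mir128-1, had a change of -0.26 (adjusted p = 0.255) and Arpp21 one of -0.38 (adjusted p = 0.163). The clusters may read precursor as well as mature RNA, and a level of mature miR-128 cannot be taken from them.

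Several of the genes with lower change encode proteins of the neuronal surface, a grouping made after the genes were known and not tested. Flrt2 encodes a leucine-rich adhesion protein that binds Unc5 and latrophilin receptors. It read 3.35, 3.36 and 3.62 in MCAO and 3.06, 3.05 and 3.19 in sham animals at 2 h, and 2.96, 2.82 and 2.67 against 3.42, 3.64 and 3.64 at 6 h. MCAO values lay above all sham values at 2 h and below all of them at 6 h. The change was -1.09 ± 0.14 (adjusted p = 0.0223), the effect was 0.34 at 2 h (adjusted p = 0.337) and -0.75 at 6 h (adjusted p = 0.00241), and both sides moved. Npy1r, the Y1 receptor of neuropeptide Y, crossed in the same way, from 2.14, 2.61 and 2.69 against 2.02, 1.95 and 1.98 at 2 h to 1.84, 1.88 and 1.58 against 2.40, 2.56 and 2.54 at 6 h (change -1.23 ± 0.18, adjusted p = 0.0345). Its effect did not pass at 2 h (0.50, adjusted p = 0.251) and passed at 6 h (-0.73, adjusted p = 0.00825).

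Slitrk1 and Slitrk3 encode postsynaptic adhesion proteins that bind presynaptic receptor phosphatases. Their MCAO values fell by 0.87 and 0.63, and their changes were -0.67 and -0.72 (adjusted p = 0.0389 and 0.0345). Slitrk3 lay between 3.41 and 3.67 in all 9 animals outside the 6 h MCAO group and at 2.88 to 3.01 in that group. Epha3, an ephrin-A receptor, fell in MCAO from 1.04, 1.15 and 1.07 to 0.33, 0.50 and 0.51 (change -0.76, adjusted p = 0.0345). Pcdhb17, a clustered protocadherin, fell on both sides, by 1.04 in MCAO and 0.47 in sham (change -0.57, adjusted p = 0.0345), and its value is uncertain because its probes may share sequence with other members of the cluster.

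Ube3a encodes a ubiquitin ligase that neurons express from the maternal copy. It read 4.52 to 4.67 in the 9 animals outside the 6 h MCAO group, and 4.03, 4.08 and 3.89 in that group, which did not overlap with any other. The change was -0.60 ± 0.09 (adjusted p = 0.0345), with an MCAO fall of 0.58 (adjusted p = 0.000211) and a sham shift of 0.03 (adjusted p = 0.8). With the 2 clusters of this symbol averaged the change was -0.39 and did not pass (adjusted p = 0.0857). Ankrd34c, an ankyrin repeat gene, fell by 1.05 in MCAO and had a change of -1.28 (adjusted p = 0.0468). Ift80, a subunit of the machinery that carries cargo in cilia, fell by 0.65 in MCAO with a sham shift of -0.05 (change -0.60, adjusted p = 0.0223).

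Ddit4l was the only gene called at both times with opposite signs. It encodes REDD2, an inhibitor of mTORC1 signalling. It read 1.37, 1.55 and 1.73 in MCAO and 1.01, 0.94 and 1.03 in sham animals at 2 h, and 0.84, 1.02 and 0.96 against 1.56, 1.34 and 1.53 at 6 h. The MCAO values at 6 h overlapped with the sham values at 2 h, and the MCAO values at 2 h with the sham values at 6 h. The effect was 0.56 at 2 h (adjusted p = 0.0343) and -0.54 at 6 h (adjusted p = 0.00835), and the change was -1.09 ± 0.13 (adjusted p = 0.0223). The MCAO values fell by 0.61 and the sham values rose by 0.48 (adjusted p = 0.000898 and 0.00588). Of the other 40 genes called at both times, all had the same sign at both and none had a called change.

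Genes of vessels and microglia were also among the 22. Slco1a4 encodes an organic anion transporter of the blood-brain barrier. It read 2.34, 2.35 and 2.32 against 2.26, 2.22 and 2.36 at 2 h, and 2.07, 1.62 and 1.69 in MCAO against 2.73, 2.71 and 2.48 in sham animals at 6 h (change -0.90 ± 0.15, adjusted p = 0.0468). Both sides moved, with an MCAO shift of -0.54 and a sham shift of 0.36 (adjusted p = 0.00362 and 0.036). The mean of 10 endothelial markers was 0.71 to 1.01 in MCAO and 0.71 to 1.00 in sham animals at 6 h, and overlapped, and the list's median change was -0.04 (negative in 17 of 24 settings) with 1 called lower, Slco1a4. Of 23 blood-brain barrier genes, 1 (Slco1a4) was called lower and 0 higher (median -0.05), while Slc7a5 and Slc16a1, which carry amino acids and lactate, had changes of 0.89 and 0.61 (adjusted p = 0.176 and 0.173).

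Selplg encodes the selectin ligand PSGL-1, carried by microglia and leukocytes. It read 1.85, 1.85 and 1.93 against 2.05, 1.98 and 1.97 at 2 h, and 1.20, 1.47 and 1.21 in MCAO against 2.20, 2.16 and 2.15 in sham animals at 6 h (change -0.75 ± 0.11, adjusted p = 0.0345, and -0.59 with adjusted p = 0.0673 as the mean of 2 clusters). Only the MCAO side moved, with a shift of -0.58 (adjusted p = 0.000354), and the sham shift was 0.17 (adjusted p = 0.123). Of 11 microglial markers 1 was called lower for the change (Selplg, against 0.0992% of all genes) and 0 higher (median -0.24). For the effect at 6 h, 5 of the 11 were lower and 1 higher, against 5.53% and 2.69% of all genes. P2ry12 and P2ry13, purine receptors of resting microglia, had changes of -0.74 and -0.82 (adjusted p = 0.052 and 0.12). Csf1r, the growth factor receptor that microglia need, and Cx3cr1 had changes of -0.06 and 0.01. Hnmt, which inactivates histamine, fell on both sides, by 0.94 in MCAO and 0.34 in sham (change -0.60, adjusted p = 0.0345).

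The remaining named genes with lower change were Zfp40, a zinc finger gene (-0.99, adjusted p = 0.0345), and Rnf133, a RING finger gene (-1.15, adjusted p = 0.0468), which moved on both sides. The sham shift of Zfp40 (0.31) lay at the threshold. Outside the rule, and named after their values were seen, were Pot1a, which protects telomeres (-0.56), Jcad, an endothelial junction gene (-0.56), AI593442 (-0.81), 6330415B21Rik (-0.90), 9530091C08Rik (-0.68) and 1700069L16Rik (-0.51). The MCAO side alone moved in Pot1a, AI593442, 6330415B21Rik and 9530091C08Rik, and both sides moved in Jcad and 1700069L16Rik. After quantile normalization and after interquartile scaling only the sham side of Jcad and only the MCAO side of 1700069L16Rik passed.

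Of the pathway lists, glucocorticoid-responsive genes had the lowest median sham shift. Glucocorticoids are released by surgical stress, and their receptor switches on genes such as Fkbp5, Sgk1 and Pdk4. Of 24 measured, 2 were called higher (Pdk4, Cdkn1a) and 0 lower for the change, 22 had a positive estimate, and the median was 0.37 (all genes -0.02). The sham values fell in 16 of 24 and rose in 0 (median -0.49), against falls in 14.2% of all genes. The MCAO values fell in 9, against 21% of all genes, and rose in 3, near the 10.2% of all genes (median -0.02). After quantile normalization the sham values fell in 11 and rose in 1 (median -0.39) and the MCAO values fell in 4 and rose in 5 (median 0.06). Over all 22180 genes the sham values then fell in 1507 and rose in 1567. The MCAO values of all genes then fell in 3129 and rose in 2719. Sgk1, a kinase gene, read 3.49, 3.33 and 3.31 in sham animals at 2 h and 2.27, 2.26 and 2.26 at 6 h, and 3.21, 3.12 and 3.18 against 2.46, 2.94 and 2.69 in MCAO (change 0.64, adjusted p = 0.0964). Its values fell on both sides, by 1.11 in sham and by 0.47 in MCAO, and the difference of these is the change that did not pass.

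Other members gave a range of patterns. Nfkbia, the inhibitor of NF-kB, fell by 1.10 in sham and by 0.60 in MCAO (change 0.49, adjusted p = 0.215). Fkbp5, a co-chaperone of the receptor, was lower in MCAO at 2 h (-0.60, adjusted p = 0.0236) and its sham values then fell by 0.36. Per1 and Dusp1, which also respond to neuronal activity, fell on both sides, with changes of 0.02 and -0.17. Tsc22d3, known as Gilz and a standard readout of the receptor, did not pass in sham (0.08, adjusted p = 0.517) or in MCAO (0.16, adjusted p = 0.174). The list shares members with the cell death, astrocyte and immediate early lists, and the list's falls in sham contain any offset between the arrays of the 2 times.

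**Figure D4:**
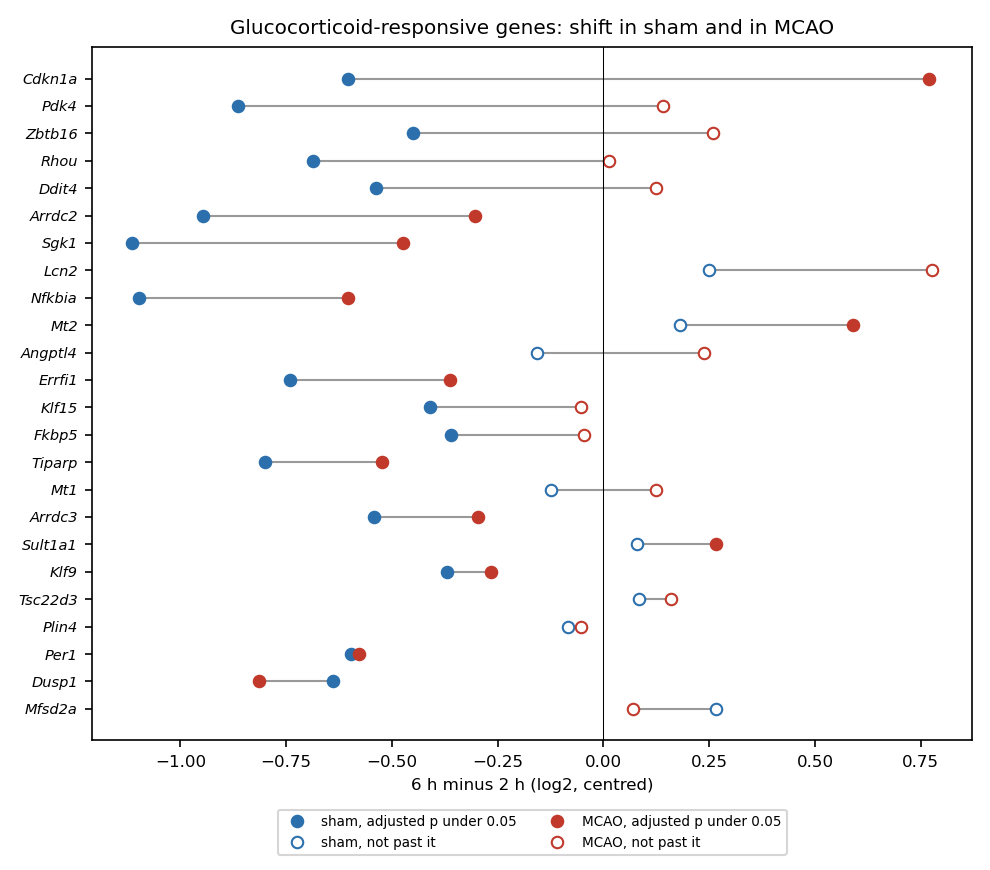
Shift between 2 h and 6 h (horizontal, log2 of centred values) in sham (blue) and MCAO (red) for the 24 glucocorticoid-responsive genes, ordered by the change of the effect, which is the length of the grey line; filled points passed an adjusted p of 0.05. The sham point lies left of the MCAO point in 22 of 24 genes, and 16 sham points passed as falls.

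Among reactive astrocyte genes the MCAO values moved and few sham values did. These genes mark the swelling and remodelling of astrocytes after injury. Of 26 measured, 0 were called for the change, 16 were higher at an unadjusted p under 0.05 (6.03% of all genes), 25 had a positive estimate (45.4% of all genes), and the median was 0.46. The MCAO values rose in 16 of 26 and fell in 0 (median 0.41), against rises in 10.2% of all genes. The sham values rose in 2, near the 7.41% of all genes, and fell in 1 (median 0.005). After quantile normalization the MCAO values rose in 17 (median 0.42), and in 2719 of all 22180 genes. Without centring the MCAO values rose in 10 and fell in 1 (median 0.30), against 1293 rises and 8187 falls among all 22180 genes. The sham values then fell in 6, against falls in 7526 of all 22180 genes. Osmr, the oncostatin M receptor, read 0.48, 0.79 and 0.16 in MCAO at 2 h and 1.51, 1.67 and 1.56 at 6 h, against 0.03 to 0.60 in all sham animals (change 1.25, adjusted p = 0.0632). Gfap and Vim, the intermediate filament genes, rose by 1.08 and 0.84 in MCAO, with changes of 0.94 and 0.80 (adjusted p = 0.165 and 0.0777). Cd14, a receptor for bacterial lipid also carried by myeloid cells, rose by 1.00 in MCAO (change 1.17, adjusted p = 0.0777). Stat3 had a change of 0.50 that did not pass (adjusted p = 0.0735), and its sham values fell by 0.43. The mean of the 10 general astrocyte markers was 2.88 to 3.06 in MCAO and 2.92 to 3.10 in sham animals at 6 h.

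Cytokines and heat shock genes held large effects and no called change. Of 30 cytokines and chemokines 0 were called (median 0.17), and MCAO values rose in 11 and fell in 3 (10.2% and 21% of all genes). Ccl3, a chemokine of activated microglia and macrophages, read 1.02, 0.98 and 2.11 in MCAO at 2 h and 2.77, 3.98 and 4.23 at 6 h, with sham animals between -1.17 and -0.22. Its effect was 2.35 at 2 h and 3.97 at 6 h, and its change of 1.62 ± 0.50 did not pass (adjusted p = 0.191). Il1b had a change of 1.02 (adjusted p = 0.201). Of 24 heat shock genes 0 were called (median 0.08). Hspa1a, the inducible 70 kDa chaperone, read 5.39 to 6.40 in MCAO and 1.43 to 2.01 in sham animals at 2 h, and 6.03 to 6.58 against 1.86 to 2.05 at 6 h, with a change of 0.06 ± 0.32. Hspa1a and Hspa1b are near-identical copies and are not independent. The co-chaperone Bag3 and the mitochondrial chaperonin Hspe1 had changes of 0.62 and 0.73 (adjusted p = 0.0893 and 0.167).

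Immediate early genes gave 1 called of 44 (Gadd45b), a median of 0.10, and members of either sign. Fos read 2.59, 2.79 and 3.12 in MCAO at 2 h and 2.25, 1.87 and 1.43 at 6 h, and its sham values also lay lower at 6 h (-0.59, adjusted p = 0.0906), so its change was -0.39 ± 0.33 (adjusted p = 0.639). Npas4, a transcription factor of active neurons, had an effect of 3.07 at 2 h and 1.97 at 6 h, with an MCAO fall of 1.40 (adjusted p = 0.00224) and a change of -1.09 ± 0.36 that did not pass (adjusted p = 0.21). Jun had effects of 1.33 and 1.40 (change 0.07, adjusted p = 0.908). Inhba, a subunit of activin, rose on both sides, by 2.35 in MCAO and 0.93 in sham (change 1.42, adjusted p = 0.0632). These values do not show that the effects were equal at both times, since the standard errors of the changes ran up to 0.46 in this list (Nr4a1).

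Ion channel and transmitter receptor genes held MCAO falls and no called change. Of 28 potassium, sodium and calcium channel genes, 0 were called for the change (median -0.15, 24 negative), while MCAO values fell in 16 and rose in 2 (21% and 10.2% of all genes) and sham values fell in 5, near the 14.2% of all genes. Scn1a, the sodium channel of fast-spiking interneurons, read from 3.85 to 4.22 in MCAO at 2 h and 3.22, 3.28 and 3.05 at 6 h, against 3.76 or more in all sham animals (change -0.71, adjusted p = 0.0632). Of 21 glutamate and GABA-A receptor genes 0 were called (median -0.12), with MCAO falls in 13 and sham falls in 5. After quantile normalization MCAO falls numbered 10 of the channel and 7 of the receptor genes and sham falls 1 and 0. Over all 22180 genes that scaling gave 3129 MCAO falls and 1507 sham falls. The median sham shift of the channels turned from -0.09 to 0.02. Grik2, a kainate receptor subunit, had a change of -0.47 (adjusted p = 0.0971). The mean of 10 cortical excitatory markers was 2.60 to 2.63 in MCAO and 2.71 to 2.72 in sham animals at 6 h, after 2.72 to 2.78 and 2.76 to 2.80 at 2 h. Of those markers 0 passed for the change (median 0.07).

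**Figure D5:**
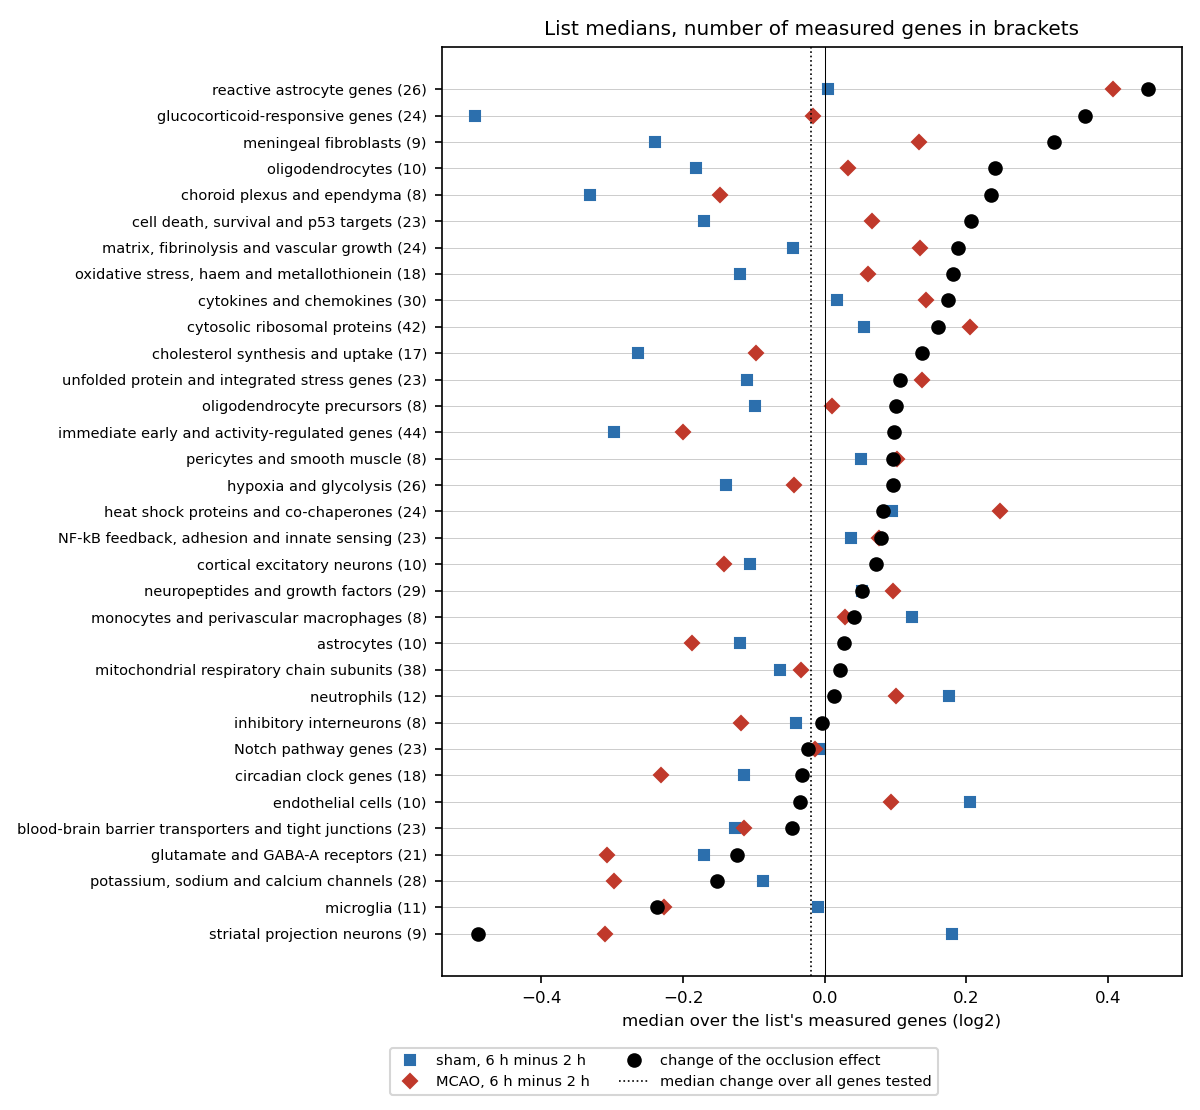
Median over each list of the change of the effect (black), the MCAO shift (red) and the sham shift (blue), in log2 units, with the number of measured genes in brackets and the median change of all genes (-0.02) dotted. Reactive astrocyte genes lie at 0.46 with the sham median at 0.00, glucocorticoid-responsive genes at 0.37 with the MCAO median at -0.02, and striatal projection neuron markers at -0.49.

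The remaining lists had 0 calls each for the change. Cytosolic ribosomal proteins (42 measured) had a median of 0.16, oxidative stress genes 0.18, cholesterol genes 0.14, unfolded protein genes 0.11, NF-kB feedback genes 0.08, neuropeptides 0.05, respiratory chain subunits 0.02, Notch genes -0.02 and clock genes -0.03. Leaving out single animals or changing the settings turned the sign of the Notch median (20 of 24 settings kept it) and of the respiratory chain median (23 of 24, lost under a change of scaling). Among cell type lists the oligodendrocyte median was 0.24, the meningeal fibroblast median 0.32 and the choroid plexus median 0.24, with 0 calls in each, and the last was negative in 4 of 24 settings. All 9 measured meningeal fibroblast markers had a positive estimate. Their mean centred value was 0.04 to 0.37 in MCAO and 0.27 to 0.50 in sham animals at 2 h. At 6 h it was 0.28 to 0.49 in MCAO and 0.04 to 0.26 in sham animals, with no overlap. The part of these markers in the result was not tested. Oligodendrocyte precursors and pericytes both lay at 0.10, monocytes and perivascular macrophages at 0.04, general astrocyte markers at 0.03 and inhibitory interneurons at 0.00, with 0 calls in each. The astrocyte sign held in 21 and the interneuron sign in 19 of 24 settings. No erythrocyte gene of the 6 listed had a cluster of its own.

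Erdr1 had the largest change in size and did not pass (-2.51 ± 0.57, adjusted p = 0.0971). Its 2 h sham animals read 2.68, 1.92 and 0.63, while the other 9 animals lay between 3.97 and 4.89, so its effect at 2 h (2.59, adjusted p = 0.0236) rests on sham animals that read low and differed among themselves. It was chosen after its values were seen.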

How the data were processed

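The authors deposited one mouse table of log2 expression values, to 2 decimals, for 12 whole-transcript arrays. The submitters' processing notes name oligo and limma without versions, and how background was corrected and arrays normalized is not stated there. Titles supplied each sample's group, time and replicate number. Another label gives 2 h even for samples titled 6 h and was set aside. Per the labels' protocols RNA came from an RNeasy kit, had an integrity number above 7.5 and was labelled with the WT PLUS kit. The rat table was not used here.

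The platform annotation gives 23521 clusters a single symbol, 1814 several and 16010 none; for 1082 symbols the cluster with the highest mean was taken. RefSeq's table holds an ID for 23328 of the single-symbol clusters. The median of each array over all clusters was subtracted. limma 3.58.1 (R 4.3.3) fitted 4 group means to 12 arrays (8 residual and 3.7 prior degrees of freedom). The fit was first run on simulated data with planted changes and independent noise. That run cannot show how the calls in these data depend on single animals. Two-sided p-values were adjusted by Benjamini and Hochberg's method over 22180 genes, with a threshold of 0.05. A side was said to move where its shift between the times passed that threshold. The highest share of equal values in 2 arrays was 2.54%.

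The genes named are up to 15 of the largest called changes in each direction without unnamed loci, small RNAs and multigene families, up to 4 called members per pathway list, the highest and lowest per cell type list, up to 8 microRNA genes, and genes called at both times with opposite signs. In the higher direction fewer than 15 were eligible, and all of them were named. Of 668 genes in 20 pathway and 14 cell type lists, 604 were measured. The comparison and the lists were chosen with earlier results of these data known. List members outside that rule are named as examples after their values were seen. Alternatives changed the centring, the normalization, the variance model, weights, filters, the cluster rule, covariates and the animals.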

Additional observations from a re-analysis of the deposited data

Results flagged for a closer look

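The change between 2 h and 6 h is itself a test of a difference between times. It was passed by 19 genes with a higher and 22 with a lower change of the occlusion effect, and the counts rest on single animals as given above. Ddit4l was called at both times with opposite signs, and its change was -1.09 with a standard error of 0.13, in 7 of the 12 fits that left out 1 animal still past the threshold. No group holds the 4 animals that a test for an outlying sample needs.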

How the results depend on the processing

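All 41 genes kept the direction of their change under every alternative in which they were tested, and all of them left the threshold under some. The count of 41 was 38 without centring, 38 after quantile normalization, 52 after interquartile scaling, 45 with array weights, 38 with the mean over clusters and 41 when centred on the genes tested (an alternative chosen after seeing the data). It was 364 with the trend and robust variance model (40 of the 41 among them), 385 among the brighter genes (all 30 of the 41 that were tested), 14 over all clusters (more tests), 8 with the choroid plexus marker covariate, 0 with the striatal marker covariate and 15 with a fold limit of log2 1, which only removes genes. With the replicate block it was 15 (13 of the 41), and the shared numbers do not pair the animals: over 18 pairs with the same number the correlation of their deviations was -0.125 to 0.0628, with 0 above 0.1. Without 1 animal the count ranged from 0 to 85 for the change, from 5259 to 6802 for the MCAO shift (6922 with all animals), from 2805 to 5052 for the sham shift (4786), from 23 to 66 for the effect at 2 h (65) and from 801 to 1605 for the effect at 6 h (1824). The sham shift gave 8458 calls without centring and 3074 after quantile normalization. The effect at 2 h gave 101 with the trend and robust model, 102 with array weights, 40 over all clusters and 40 with the striatal covariate, and the effect at 6 h gave 2791 with the trend and robust model and 40 with the striatal covariate. A fold limit of log2 1 left 72 MCAO shifts, 48 sham shifts, 31 effects at 2 h and 58 at 6 h. Where no construction of the alternative is named, the cause was not tested. Signal over background is unknown, since the table has no detection values.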
